A study of Arabidopsis thaliana with 6 samples.

Results

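Root hair class III peroxidases are secreted haem enzymes made mainly in the hair-forming cells of the root epidermis. The set described here consists of 6 Arabidopsis thaliana loci listed by name, a choice made with earlier results of these arrays known. A locus was measured where the platform annotation of the Affymetrix ATH1 array listed a probe set (a group of probes for 1 transcript) for it alone. This held for 4 of the 6 loci, among 22746 probe sets tested. They were AT3G49960 (probe set 252238_at), AT1G34510 (261157_at), AT1G30870 (265102_at) and AT4G26010 (253998_at), with 1 probe set each. RHS18 (AT5G22410) and RHS19 (AT5G67400), named for their root hair specific expression, had no probe set listed under their names and were not analysed here.

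The arrays measured RNA of whole roots from seedlings kept for 7 days on upright plates of solid medium. Wild type, an overexpressor of RXR1 and an rxr1 mutant were each hybridised to 2 arrays, 6 in all. RXR1 (AT3G25240), a member of the DUF506 family, is known to hold back the elongation of root hairs, and the comparisons asked how root transcripts differ when it is overexpressed or mutated. The accession, the promoter behind the overexpression, the mutant allele and the number of independent lines are not stated in the labels. They also do not say whether both arrays of a genotype were made from separate plants or plates. The p-values therefore reflect only the scatter of these arrays, part or all of which may be technical.

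Class III peroxidases take electrons from wall phenolics and from tyrosines of structural proteins, using hydrogen peroxide as the oxidant. They can therefore stiffen a wall by joining extensins, which are rod-like hydroxyproline-rich proteins, and they can also release reactive oxygen that loosens it. In a root hair, which grows only at its tip, the NADPH oxidase RHD2 supplies the superoxide from which the peroxide is formed. AT4G26010, known as PRX44, and RHS19 have been studied as enzymes that link extensins in growing root hairs. AT3G49960, AT1G34510 and AT1G30870 encode peroxidases of the same class, and no separate function is given for them here.

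Values are RMA signals, which are background-corrected and normalised between arrays, as intensities or as their log2. Probe sets differ in affinity, so only differences between arrays, and not levels, were compared between genes. All 24 values of the 4 peroxidases lay above the median of their array (log2 6.76 to 6.80). RXR1 had 0 probe sets listed under its locus, so the genotypes were not checked at the gene itself. Wild-type replicate 2 stood apart, with authors' deposited correlations of 0.9700 to 0.9826 with the other 5 arrays, against 0.9938 to 0.9978 among those 5. The peroxidase differences from wild type are therefore given with and without it, and so are other differences and list medians that leaving it out moved by over 1.5 times.

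The first comparison set the overexpressor against wild type. Signals of the 4 peroxidases were lower in both overexpressor arrays than in both wild-type arrays, by 1.51-fold to 2.70-fold in the means. AT3G49960 passed the test, and the other 3 did not. Calls rest on limma's moderated test over all 22746 probe sets with Benjamini-Hochberg adjustment, at an adjusted p under 0.05. By that rule 0.101% of all probe sets were called, every one of them lower. Overexpressor arrays lay wholly below the wild-type arrays for 19.8% of all probe sets, and the difference was below 0 for 48.4%. In RNA of whole roots, fewer hair cells and less RNA per hair cell cannot be told apart.

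AT3G49960 had intensities of 539 and 582 in the wild-type arrays, 229 and 223 in the overexpressor arrays and 482 and 453 in the mutant arrays. The overexpressor arrays were the low ones, and neither came near the range of the other 4 arrays. On the log2 scale the means were 9.13 ± 0.0777 for wild type, 7.82 ± 0.0277 for the overexpressor and 8.87 ± 0.0631 for the mutant (SD, n = 2 each). The gene fell by 1.31 ± 0.0895 log2 in the overexpressor (SE, limma adjusted p = 0.017), to 40.3% of wild type. It was lower in each of the 4 array pairs, by differences from -1.39 to -1.24. The call was lost when either overexpressor array or either mutant array was left out, with limma adjusted p up to 0.401, when only the 4 arrays compared were fitted (adjusted p = 0.0674), and with a pseudocount of 16 (adjusted p = 0.0531). The difference itself stayed between -1.37 and -1.26 in all fits with 1 array left out.

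AT1G34510 had intensities of 364 and 500 in wild type, 134 and 186 in the overexpressor, and 332 and 521 in the mutant. The overexpressor arrays were again below all others, but the arrays of each genotype lay far apart. Its log2 means were 8.74 ± 0.322, 7.30 ± 0.340 and 8.70 ± 0.462 (SD, n = 2 each, wild type, overexpressor, mutant). Its difference of -1.43 ± 0.257 was the lowest of the 4 peroxidases and did not pass (limma adjusted p = 0.128, 95% interval -2.04 to -0.83). The SD of this gene in wild type was 0.322 against 0.0777 for AT3G49960, so a larger difference came with a larger error. Replicate 2 was the higher array in each genotype, by 0.46, 0.48 and 0.65 in the same order. What the replicate numbers mark is not stated in the labels. Leaving out 1 array moved the difference between -1.68 and -1.19.

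AT1G30870 gave 1056 and 1079 intensity units in wild type, 646 and 717 in the overexpressor, and 1027 and 982 in the mutant. Its groups were narrow, with log2 SDs of 0.0215, 0.107 and 0.0461 (n = 2 each), and the overexpressor did not overlap either other group. Its difference from wild type was -0.65 ± 0.0919 log2, or 63.8% of wild type (limma adjusted p = 0.0738).

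AT4G26010, the extensin-linking enzyme named above, gave 1166 and 1380 in wild type, 771 and 913 in the overexpressor, and 1093 and 1220 in the mutant. The overexpressor arrays were the lowest, with a gap of 0.35 log2 to the nearest wild-type array. Its difference was -0.60 ± 0.128 log2, or 66.2% of wild type (limma adjusted p = 0.196).

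Without wild-type replicate 2 the differences were -1.26 for AT3G49960 (limma adjusted p = 0.0112), -1.21 for AT1G34510 (0.179), -0.63 for AT1G30870 (0.08) and -0.47 for AT4G26010 (0.232). The same gene was thus the one called with and without that array, while the number of probe sets called rose from 23 to 36. Without wild-type replicate 1 the differences were -1.37, -1.66, -0.66 and -0.72 in the same gene order. The only control left was then the array that stood apart. The 3' minus 5' log2 signal of a control transcript is larger where RNA is less intact. For an actin control it was highest in wild type, at 1.39 and 1.40. The overexpressor arrays gave 1.21 and 1.11, and the mutant arrays 1.29 and 1.19. A separate actin pair gave 3.32 and 3.36 in wild type, 3.18 and 3.02 in the overexpressor, and 3.22 and 3.32 in the mutant. For GAPDH the first pair gave 0.37 and 0.28, 0.25 and 0.29, and 0.36 and 0.15 in the same order, with overlap of all groups. The second GAPDH pair gave 0.58 and 0.57 in wild type, 0.66 and 0.58 in the overexpressor, and 0.67 and 0.36 in the mutant, so wild type was not the highest there. The part of RNA quality in the peroxidase differences was not tested.

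**Figure D1:**
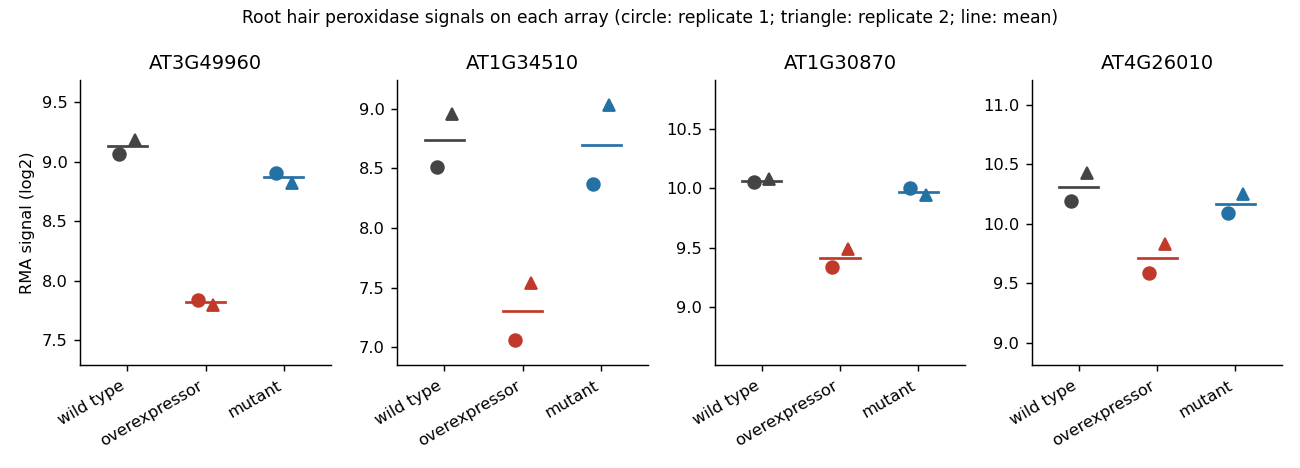
RMA signal (log2, vertical axes of equal span) of the 4 measured root hair peroxidases on each of the 6 arrays, as points, with lines for the means of 2 arrays. In every panel both overexpressor arrays lie below the wild-type and mutant arrays, while the AT1G34510 arrays of each genotype are spread more widely than those of AT3G49960.

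Whether the 4 peroxidases differed from wild type by unequal amounts could not be shown by an exact permutation test with 2 arrays a group. Differences between their log2 signals within an array are given as a description, a step that removes anything scaling a whole array. The signal of AT3G49960 minus that of AT4G26010 was -1.11 and -1.25 in wild type, -1.75 and -2.04 in the overexpressor, and -1.18 and -1.43 in the mutant. The overexpressor and wild-type arrays did not overlap in this value, whose change was -0.71 log2 (exact permutation p = 0.333, two-sided, the smallest that 2 arrays against 2 allow). Against AT1G30870 the same change was -0.66. AT1G34510 changed by -0.79 relative to AT1G30870 and by -0.84 relative to AT4G26010, each without overlap and each with the same exact p = 0.333. Within the pair AT3G49960 and AT1G34510 (0.12) and within the pair AT1G30870 and AT4G26010 (-0.05) the arrays overlapped, with exact permutation p = 0.667 and 1. Without wild-type replicate 2 the 4 changes without overlap ranged from -0.78 to -0.57, and those within the other pairs were -0.05 for AT3G49960 and AT1G34510, the opposite sign, and -0.16 for AT1G30870 and AT4G26010. A permutation test of this size cannot reach 0.05 for any such change.

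The second comparison set the mutant against wild type. All 4 differences were below 0, as were 51.6% of all probe sets, and small, from -0.26 to -0.04 log2, with a median of -0.11 against -0.01 over all probe sets. By limma 0 of the 4 were called, and 1 had an unadjusted p under 0.05, against 9.33% of all probe sets by that rule. Calls at an adjusted p under 0.05 were made for 0.00440% of probe sets in this comparison. The median of the 4 was -0.04 without wild-type replicate 2, with 3 of them below 0, and 7 probe sets were called in place of 1.

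AT3G49960 was at -0.26 ± 0.0895 in the mutant (limma adjusted p = 0.524, 95% interval -0.47 to -0.05), or 83.5% of wild type. Its mutant arrays lay below its wild-type arrays with a gap of 0.16 log2. AT1G30870 was at -0.09 ± 0.0919 (interval -0.30 to 0.13) and likewise did not overlap, with a gap of 0.04. Arrays lying wholly below wild type were thus found for 2 of the 4 genes, against 19.0% of all probe sets. The mutant and wild-type arrays overlapped for AT4G26010, at -0.13 ± 0.128 (interval -0.44 to 0.17). They overlapped for AT1G34510 too, at -0.04 ± 0.257 (interval -0.64 to 0.57). The interval of AT1G34510 includes changes of over 0.5 log2 in either direction. Its sign turned with single arrays, to 0.29 without mutant replicate 1 and 0.19 without wild-type replicate 2. Without wild-type replicate 2 the AT3G49960 difference was -0.20, that of AT1G30870 -0.07 and that of AT4G26010 -0.01.

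Last, the overexpressor was compared with the mutant, and these differences use no wild-type mean. This comparison therefore also tests whether the lines differ from wild type by different amounts. All 4 peroxidases had overexpressor arrays wholly below the mutant arrays, which held for 20.3% of all probe sets, while 48.6% of all had a difference below 0. AT3G49960 was lower by -1.05 ± 0.0895 log2 in the overexpressor (limma adjusted p = 0.042), at 48.2% of the mutant. It was called in a comparison in which 0.0132% of all probe sets were called, and 0.00879% of all were called lower. With only the 4 arrays compared, 58 probe sets were called in place of 3. Leaving out either wild-type array gave that same fit, as a lone wild-type array has no scatter to add.

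AT1G34510 was at -1.40 ± 0.257 (limma adjusted p = 0.275) in this comparison. AT1G30870 was at -0.56 ± 0.0919 (limma adjusted p = 0.227). AT4G26010 was at -0.46 ± 0.128 (limma adjusted p = 0.662). None of these 3 passed, although their 95% intervals, which are not adjusted for the number of probe sets, ended below 0 (at -0.79, -0.34 and -0.16). The AT3G49960 call was lost without any 1 of the overexpressor or mutant arrays (limma adjusted p 0.226 to 1). It was lost as well with a pseudocount of 16 (adjusted p = 0.104), with each array centred on its median (adjusted p = 0.0573) and without the dimmest 25% of probe sets (adjusted p = 0.0515). The difference stayed between -1.10 and -1.01 in these fits, apart from the fit with the pseudocount, whose scale is not the same.

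**Figure D2:**
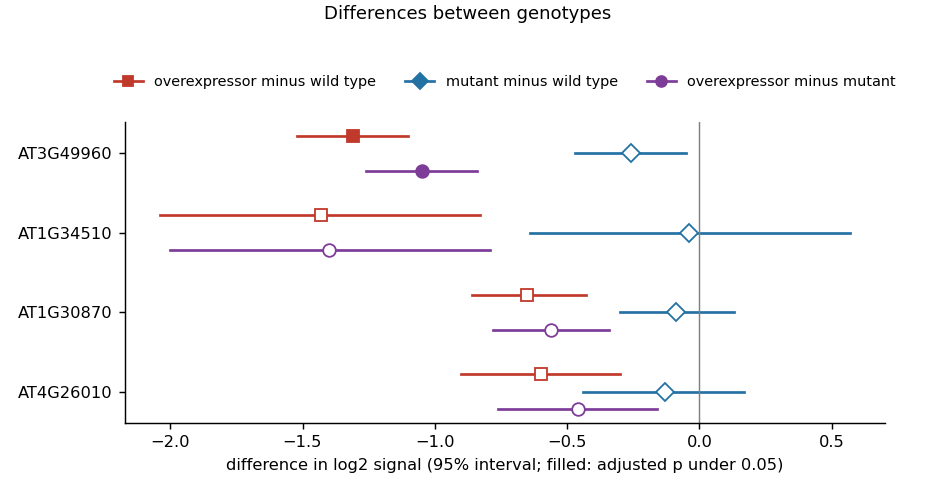
Difference in log2 signal (horizontal axis) between genotypes for each measured peroxidase, with 95% intervals from the fit over all probe sets. Filled symbols mark adjusted p under 0.05, which AT3G49960 reached at -1.31 against wild type and at -1.05 against the mutant. The mutant intervals of the other 3 genes include 0.

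**Figure D3:**
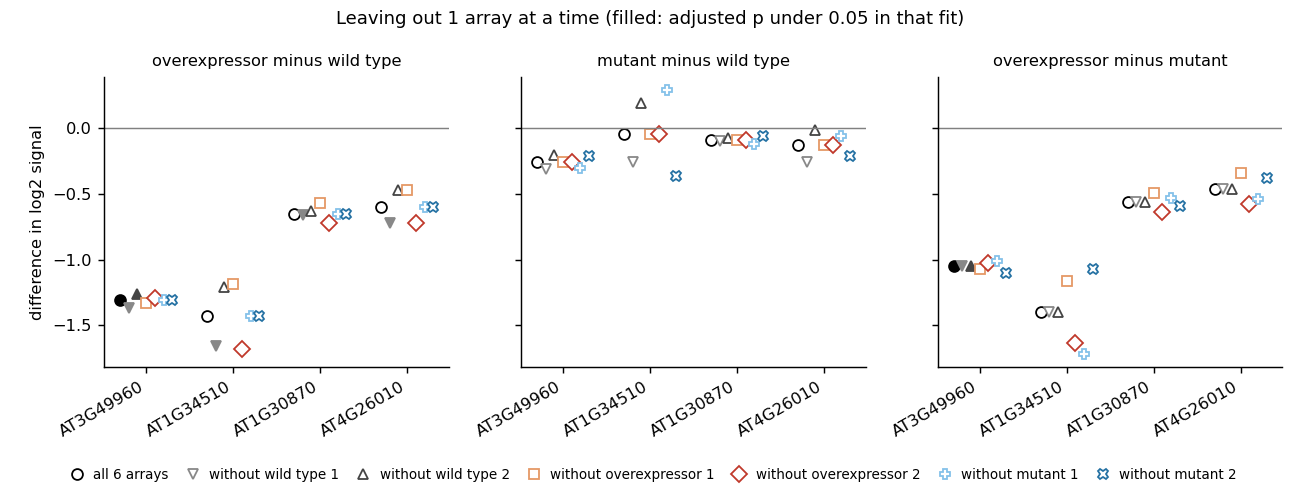
Difference in log2 signal (vertical axis) of the 4 peroxidases in each comparison with all 6 arrays and with 1 array left out at a time, filled where the adjusted p was under 0.05 in that fit. All differences that involve the overexpressor stay below 0, whereas AT1G34510 in the mutant moves between -0.36 and 0.29.

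The wider class III peroxidase family was then examined as the background of these genes. Of 73 family loci listed, 55 had a named probe set (75.3%), 51 of them outside the set of 4. In the overexpressor against wild type, 34 of the 51 were below 0 and 17 above, against 48.4% of all probe sets below 0. Their median was -0.14, against 0.01 over all probe sets. When wild-type replicate 2 was left out, 33 were below 0 and the median was -0.07. By limma 1 was called lower and 0 higher, with 12 at an unadjusted p under 0.05, which 11.8% of all probe sets reached. Ranked from the lowest difference, the root hair peroxidases stood at places 1, 2, 5 and 6 of 55. This ranking is a description, since the loci were named with results of these arrays known.

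Places 3 and 4 went to peroxidases outside the set. AT5G64120, known as PRX71 and studied as an enzyme that stiffens walls and limits growth, had log2 signals of 8.46 and 8.45 on the wild-type arrays, 7.38 and 7.46 on the overexpressor arrays and 7.90 and 8.02 on the mutant arrays. Its mutant arrays lay between the other groups, as did those of AT3G49960 and AT1G30870, but not those of AT1G34510 and AT4G26010. It fell by 1.03 ± 0.0888 in the overexpressor (limma adjusted p = 0.0224) and was at -0.50 in the mutant (limma adjusted p = 0.524). The call was lost without any 1 of the overexpressor or mutant arrays (limma adjusted p 0.11 to 0.433), with only the 4 arrays compared (0.11) and with a pseudocount of 16 (0.0531). AT2G37130 gave 11.30 and 11.63 in wild type, 10.68 and 10.63 in the overexpressor, and 11.30 and 11.39 in the mutant. Its difference of -0.81 ± 0.121 did not pass (limma adjusted p = 0.0833).

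The positive end of the family was smaller in size. AT4G08780 was at 0.46 ± 0.111 in the overexpressor (limma adjusted p = 0.228) and at 0.44 in the mutant. AT4G33420 was at 0.32 ± 0.137 and AT3G28200 at 0.25 ± 0.0837 in the overexpressor. None of these 3 passed. AT4G11290, at -0.55 ± 0.206 (limma adjusted p = 0.382), was at -0.24 without wild-type replicate 2.

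In the mutant against wild type, 35 of the 51 other peroxidases were below 0 (median -0.12), against 51.6% of all probe sets. By limma 0 of the 51 were called and 10 had an unadjusted p under 0.05, which 9.33% of all probe sets reached. Leaving out wild-type replicate 2 gave 31 of the 51 below 0 and a median of -0.05. AT5G39580, known as PRX62, was at -0.66 ± 0.164, AT5G19890 at -0.61 ± 0.126 and AT5G14130 at -0.52 ± 0.153. AT5G19890 was dim, with log2 signals of 4.10 to 4.96 on these arrays, below the array medians. With a pseudocount of 16 its difference was -0.36. At the other end AT2G43480 was at 0.63 ± 0.213 and AT5G24070 at 0.53 ± 0.277. These went to 0.28 and 0.12 without wild-type replicate 2, and AT5G14130 to -0.29. None of these 5 passed.

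Between the overexpressor and the mutant, 25 of the 51 were below 0 and 26 above, with a median of 0.01, while all 4 root hair peroxidases were below 0, with a median of -0.81. By limma 0 of the 51 were called and 5 had an unadjusted p under 0.05, which 5.05% of all probe sets reached. AT2G37130 (-0.69 ± 0.121), AT5G64120 (-0.54 ± 0.0888) and AT4G36430 (-0.35 ± 0.0894) were lowest among those without overlap. AT4G33420 (0.42 ± 0.137), AT5G39580 (0.38 ± 0.164) and AT3G01190 (0.23 ± 0.121) were highest. None of these 6 passed. Of the 51, 1 was called with only the 4 arrays compared, AT2G37130 (limma adjusted p = 0.0342).

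**Figure D4:**
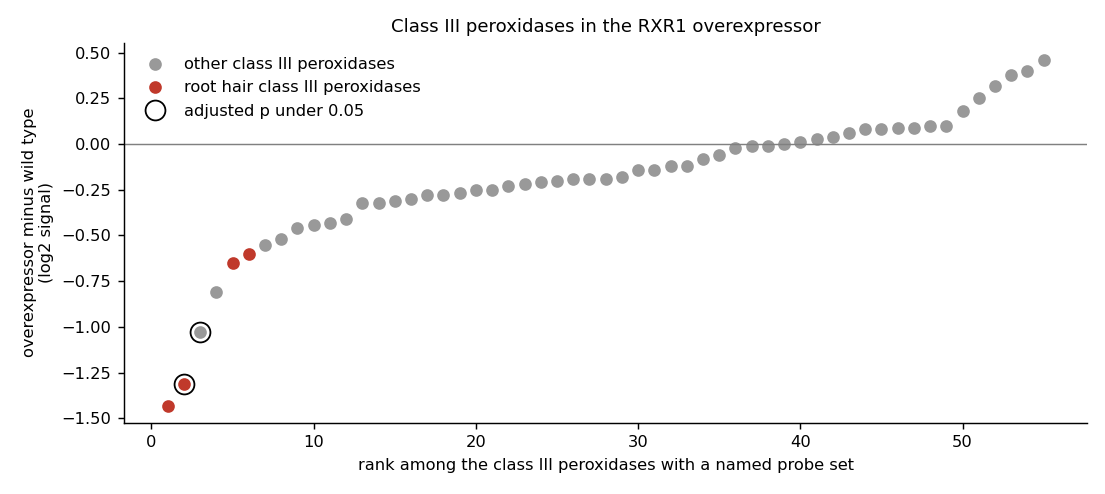
Overexpressor minus wild type (log2 signal, vertical axis) of the 55 class III peroxidases with a named probe set, ranked from lowest to highest (horizontal axis). The 4 root hair peroxidases (red) lie at places 1, 2, 5 and 6, and rings mark the 2 genes called, AT3G49960 and AT5G64120.

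Genes listed for root hair growth were taken from lists of wall genes, extensins, signalling genes and transcription factors. Of 56 listed loci, 17 had a named probe set (30.4%). RHD2 was not among them. In the overexpressor against wild type 15 of the 17 were below 0 (median -0.37), against 48.4% of all probe sets. By limma 2 were called lower, against 0.101% of all probe sets, and 0 higher. The 2 called were XTH26, a xyloglucan-modifying enzyme, at -1.34 ± 0.1 (limma adjusted p = 0.017), and GH9C1, an endoglucanase, at -0.84 ± 0.0877 (limma adjusted p = 0.0357). Both calls were lost without any 1 of the overexpressor or mutant arrays, with only the 4 arrays compared and with a pseudocount of 16 (limma adjusted p 0.0531 to 0.503), and both held without wild-type replicate 2, when 13 of the 17 were below 0. XTH26 was dim, with log2 signals of 5.11 to 6.47, below the array medians, and its difference was -1.03 with a pseudocount of 16. GH9C2, which had been listed only because the locus of GH9C1 was unsure, was at 0.24 ± 0.0864. The transcription factor gene AT2G14760, dim too at log2 4.99 to 5.25, was at 0.10 ± 0.102 (0.06 without wild-type replicate 2).

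Extensins, the wall proteins that such peroxidases can link, were measured for 9 of 17 listed loci. All 9 were below 0 in the overexpressor (median -0.37), against 48.4% of all probe sets. By limma 0 of the 9 were called and 5 had an unadjusted p under 0.05, which 11.8% of all probe sets reached. AT5G06630 was at -0.79 ± 0.229 (limma adjusted p = 0.29), with log2 signals of 8.56 and 9.36 in wild type, 8.18 and 8.16 in the overexpressor, and 8.73 and 8.58 in the mutant. That value rested on wild-type replicate 2, without which it was -0.39, and 7 of the 9 extensins were then below 0. Its probe set is of the x_at kind, whose probes can match several extensin transcripts.

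In the mutant, 14 of the 17 were below 0 (median -0.17), against 51.6% of all probe sets. By limma 0 of the 17 were called and 6 had an unadjusted p under 0.05, which 9.33% of all probe sets reached. Without wild-type replicate 2, 10 of the 17 were below 0 (median -0.08). XTH26 was at -0.36 ± 0.1, and the extensin genes AT1G26250 and AT4G08410 at -0.37 ± 0.17 and -0.36 ± 0.108, the latter also on an x_at probe set. The differences of AT1G26250 and AT4G08410 were -0.23 and -0.22 without wild-type replicate 2, and the median of the 9 extensins went from -0.27 to -0.08. GH9C2 was at 0.27 ± 0.0864. Between the overexpressor and the mutant 15 of 17 were below 0 (median -0.23), against 48.6% of all probe sets. By limma 0 of the 17 were called and 6 had an unadjusted p under 0.05, which 5.05% of all probe sets reached. The lowest without overlap were XTH26 at -0.97 ± 0.1, the expansin genes EXPA18 at -0.69 ± 0.128 and EXPA7 at -0.58 ± 0.0921. None of these passed with all 6 arrays. XTH26 (limma adjusted p = 0.0292) and GH9C1, 2 of the 17, were called with only the 4 arrays compared.

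Marker genes of cell types were counted beside these results. Of 10 root hair cell markers 4 were measured (EXPA7, EXPA18, XTH26 and GH9C1), and their summed intensity was 1182 to 1244 for wild type, 663 to 727 for the overexpressor and 1037 to 1126 for the mutant. The overexpressor arrays were thus lowest for these 4 hair cell markers as they were for the peroxidases. GH9C2, the other locus listed for GH9C1, was left out of the sum. Its log2 means were 10.51 for wild type, 10.74 for the overexpressor and 10.77 for the mutant, so it went the other way. Of 3 cortex markers 2 were measured, with sums of 290 to 356, 348 to 356 and 353 to 380 in the same order. Markers of non-hair epidermis, endodermis, stele, root cap, dividing cells and leaf tissue had 0 measured members, so the tissue label was not checked against them. The part of hair cell and cortex content in the peroxidase differences was not tested.

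The array profile of AT3G49960 was set against those of 13432 other probe sets with a named gene. The measure of likeness was the root mean square difference of log2 signals over the 6 arrays, after centring each gene on its own mean. The nearest gene was XTH26, at 0.0719 log2, followed by AT1G52820 at 0.13, AT1G19960 at 0.142, and the CAP-domain genes AT4G25790 at 0.147 and AT4G33730 at 0.15. The other root hair peroxidases were farther from AT3G49960 than these 5, at 0.287 for AT1G30870, 0.315 for AT1G34510 and 0.332 for AT4G26010. This measure takes in the size of a change as well as its shape.

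The mean centred profile of the 4 peroxidases was 0.27 and 0.48 in wild type, -0.73 and -0.52 in the overexpressor, and 0.16 and 0.33 in the mutant. Nearest to it were AT4G33730 at 0.0429 log2, FDH (formate dehydrogenase) at 0.0655, PPDK (pyruvate, phosphate dikinase) at 0.0708, AT5G47980 at 0.084 and AT1G34330 at 0.0987. The last is listed as a transcribed pseudogene. AT4G33730 was the only gene among the 5 nearest in both searches. Genes picked in this way lie close by construction, so their overexpressor differences, from -1.34 to -0.85, are no separate evidence.

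**Figure D5:**
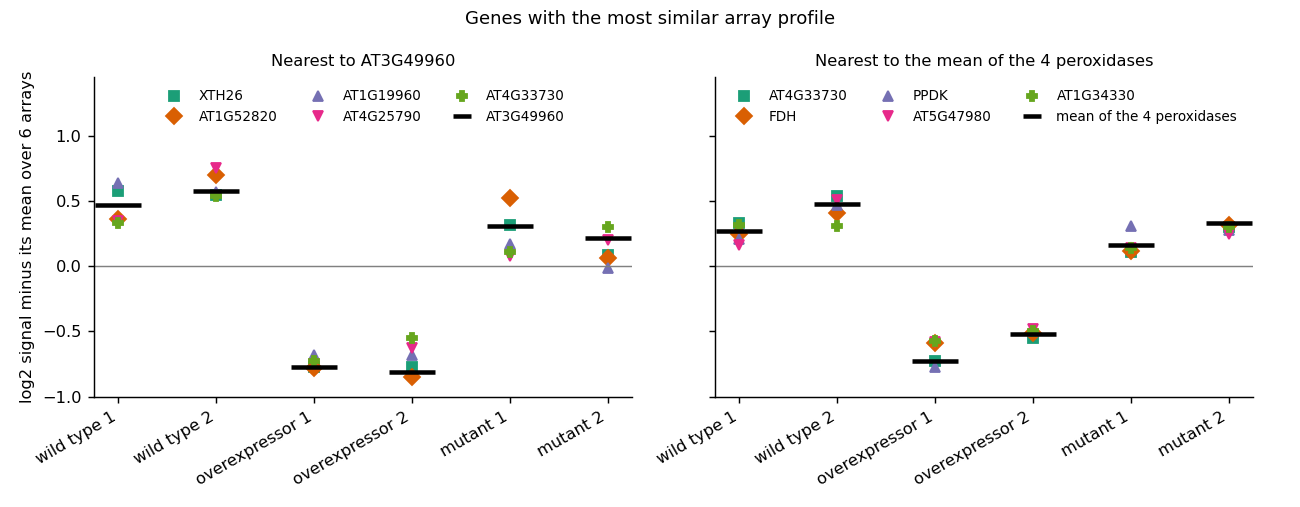
Log2 signal minus its mean over the 6 arrays (vertical axis) on each array (horizontal axis), for AT3G49960 (left, black bars) and for the mean of the 4 peroxidases (right, black bars), each with its 5 nearest genes as symbols. The symbols follow the bars, low in both overexpressor arrays, since they were chosen to.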

How the data were processed

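Arrays were scanned on the ATH1 platform. The authors deposited signal intensities, linear in scale. Per the submitters' processing notes, RMA and Affymetrix Expression Console were used; their versions are not given in the sources here. A second deposited table holds the authors' correlation score for each pair of arrays, and it equals Pearson's r of the linear signals to within 2e-14. The deposited series matrix holds the same signals to within 5e-06. The planned test was written for log2 signals and the deposited ones are linear, so log2 was taken, with no pseudocount.

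Of 22810 probe sets 64 controls were left out. Names from the platform's annotation, brought up to date with the TAIR10.1 gene table, gave 13513 probe sets a single gene and 503 several; 8730 had none, and 13436 matched a locus. The brightest probe set stood for a locus. The fit used limma 3.58.1 in R 4.3.3 (lmFit, eBayes), with a mean for each genotype over all 6 arrays, 3 residual degrees of freedom and 4.25 from the prior, two-sided, adjusted within each comparison. Intervals are 95% intervals of the same fit.

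The members and lists were chosen with earlier results of these data known. All measured members were named. From the other lists, the text names called genes and, per comparison, the 3 lowest and 3 highest among those without overlap of arrays, plus the 5 nearest profiles. Alternatives changed the variance model, arrays fitted, replicate block, centring, dim-signal filter, value table and pseudocount (16), and left out each array. The number of arrays limits the precision.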

Additional observations from a re-analysis of the deposited data

How the results depend on the processing

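Over the 12 member differences, 146 of 168 alternative values kept direction and side of the threshold. Of the rest, 13 lost the call, 7 gained it and 2 reversed. Only the AT3G49960 differences of the overexpressor from wild type and from the mutant had a call to lose, over 14 alternatives each. All 13 losses were theirs. Leaving out either array of the third genotype repeats the fit of the 4 arrays compared, so the alternatives are not all separate. The reversals were of AT1G34510 in the mutant, at 0.29 without mutant replicate 1 and 0.19 without wild-type replicate 2. With 1 array left out it ranged from -0.36 to 0.29. For the overexpressor against wild type, 23 probe sets were called, against 38 with a mean-variance trend, 0 with only the 4 arrays compared, 0 with a pseudocount of 16 and 0 to 3790 with 1 array left out. Members called were 1 of 4, against 0, 0 and 0 to 4 under the last 3 of these. For the mutant against wild type, 1 probe set was called, against 0 with 4 arrays, 0 with the pseudocount and 0 to 2743 with 1 array left out; members called were 0 in all of them, 0 to 0 with 1 array left out. Between the lines 3 were called, against 1 with arrays centred on the median, 58 with 4 arrays, 0 with the pseudocount and 0 to 58 with 1 array left out. Members called there were 1, against 0 with centring, 0 with the pseudocount, 0 without the dimmest 25% and 0 to 1 with 1 array left out. The highest counts against wild type came without wild-type replicate 1, when the array that stood apart was the only control. Errors were equal without replicate 1 and without replicate 2 of wild type, at 0.0911 for AT3G49960 in both fits. Why wild-type replicate 2 stood apart was not tested. An array left out leaves a lone sample assumed to vary like the others.

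The arrays share replicate numbers 1 and 2. Deviations of same-numbered arrays correlated at 0.05 (wild type and overexpressor), 0.32 (wild type and mutant) and 0.12 (overexpressor and mutant) across probe sets, and nothing in the labels says what a number marks, so the numbers were not taken to pair the arrays. With the replicate number as a block, 167 probe sets and 4 of 4 members were called in the overexpressor, 2 probe sets and 0 members in the mutant, and 30 probe sets and 2 members between the lines. AT1G34510 then had limma adjusted p = 0.00509 against wild type; its replicate 2 exceeded its replicate 1 by 0.46 (wild type), 0.48 (overexpressor) and 0.65 (mutant). List medians and within-array differences without wild-type replicate 2 were added after seeing the data: the median of the extensins in the mutant went from -0.27 to -0.08, and the other medians moved by less than the wild-type replicate SD of 0.191.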
